A study of Homo sapiens with 17 samples.

Results

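HSF1 is the transcription factor that switches on chaperone genes when misfolded proteins build up in the cell. The comparison described here set PC3M cells that carry an HSF1 knockout (HSF1 KO) against PC3M cells transfected with the control siRNA labelled siNT, both exposed to MG132. PC3M is a metastatic subline of the human prostate cancer line PC-3, and MG132 is a peptide aldehyde that blocks the proteasome. The genes described are those with a normalised count of 10 or more in at least 2 of the 4 libraries compared, which held for 8982 of the 14085 genes in the MG132 table. The members nearest the limit were GUSBP1, PAN3 and TAF5, whose second highest values were at most 10.01. The nearest genes outside it were ZNF26, MEIS2 and ZNF669, at 9.999, 9.996 and 9.989.

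The 2 HSF1 KO libraries, A and B, came from cells given MG132 at 2.5 µM for 4 h. The 2 siNT MG132 libraries, 1 and 2, came from cells transfected for 72 h and then given MG132 at the same dose for the same time. For context, values are also given for siNT cells in DMSO, the solvent (siNT DMSO, 2 libraries, 4 h), and for cells with an siRNA against JMJD6 in MG132 (siJMJD6, 2 libraries). A separate table of the series supplied siNT cells heat shocked at 42 °C for 1 h with 2 h of recovery (3 libraries) and unstressed siNT cells (3 libraries). RNA was measured by QuantSeq FWD, a method that reads a tag near the 3' end of a transcript. The series holds 17 libraries in all.

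Several features of the design bear on every value below. The labels name no siRNA for the HSF1 KO cells, so the knockout and the absence of a transfection cannot be told apart. The series holds no library of HSF1 KO cells without MG132. A difference that existed before MG132 and one that arose under it therefore cannot be told apart. The labels do not say whether A and B are separate clones or cultures, and p-values measure only the spread between these libraries. In bulk RNA, fewer cells of a type and less RNA per cell cannot be told apart either.

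When proteins unfold, HSF1 is released from chaperones that hold it inactive, forms trimers and binds heat shock elements, which are arrays of the unit nGAAn in alternating orientation. Its classical targets are the HSP70, HSP90, HSP40 and small heat shock protein genes, together with the co-chaperones that feed clients to them. Blocking the proteasome lets damaged proteins accumulate and is a well known way to engage HSF1, and it also engages the ATF4 and NRF2 stress pathways, which work through other factors.

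The libraries held totals of 1706951 (A) and 1602230 (B) normalised counts in HSF1 KO cells, against 1641415 (1) and 1724029 (2) in siNT cells. From the smallest step between low values this is about 1960000 and 1540000 reads in HSF1 KO cells, against 1580000 and 1860000 in siNT cells. Of the 4526 members with a mean of at least 50, libraries A and B differed 4-fold or more in 5, and siNT libraries 1 and 2 in 19. Epithelial genes (10 of 13 on a written list were members) summed to 2305 and 2427 in HSF1 KO cells and to 1686 and 2482 in siNT cells, and mesenchymal genes (7 of 16 were members) to 1005 and 1025 in HSF1 KO cells and to 1062 and 958.8 in siNT cells. Summed levels of both lists overlapped between the groups, but a sum follows its most abundant genes. KRT18 alone had 1401 and 1293 in HSF1 KO cells, against 725 and 1214 in siNT cells. No member of either list had an adjusted p under 0.05 (limma). At an unadjusted p under 0.05, 1 epithelial gene was higher in HSF1 KO cells, and 3 mesenchymal genes were higher and 1 lower. Of 3 androgen receptor-positive prostate members, 1 was lower at that limit and none higher. Of 12 blood and immune genes CD68 alone was a member, and none of 7 endothelial genes was.

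The HSF1 transcript itself had 285 and 175 normalised counts in HSF1 KO cells, against 1687 and 1884 in MG132-treated siNT cells. It fell 7.94-fold (log2 change -2.99 ± 0.27, SE; adjusted p = 5.32e-05, limma), and siNT cells in DMSO had 1502 and 1223. A 3' tag lies outside most of a gene, so this level does not show which part of HSF1 was deleted. HSF2, the related factor, had 288 and 208 in HSF1 KO cells, against 293 and 328 in siNT cells and was not called (-0.34 ± 0.25, adjusted p = 0.623). Of 15 members among HSF genes and HSF1 regulators, HSF1 and IER5 fell and none rose (median 0.04).

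A gene was called when its limma test across the 9778 genes tested had an adjusted p under 0.05. By this rule 98 of 9778 genes were lower in HSF1 KO cells, which is 1%, and 27 were higher, which is 0.276%. Counts called in each list below stand against 1.06% of members lower and 0.276% of genes tested higher. Of the members, 95 fell and 27 rose. All 122 changed at least 2-fold, and 57 of the falls and 12 of the rises were 4-fold or more. The median log2 change of all members was 0.02, with a median SE of 0.38. The 3 other called genes were too low in these 4 libraries to be members. Of the members, 181 entered through the siNT libraries alone and 178 through the HSF1 KO libraries alone, and 27 of the falls and 6 of the rises are among these. Genes named below that entered through the siNT libraries alone include RAB31, CLU, RNF43, LCP1, ALK, BTBD11 and RNF182. FST and GALNT14 entered through the HSF1 KO libraries alone. The direction of these genes is therefore partly fixed by the choice of members.

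**Figure D1:**
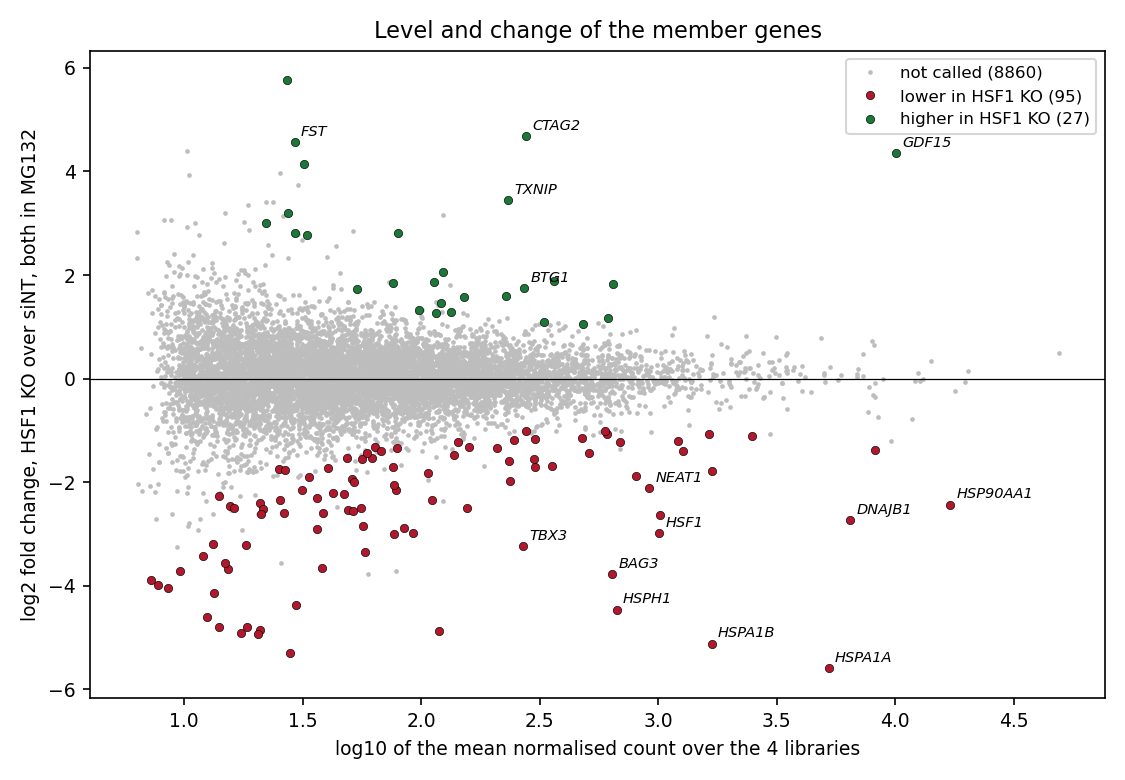
Each point is 1 of the 8982 member genes. The horizontal axis is the log10 of its mean normalised count over the 4 libraries, and the vertical axis is its log2 fold change, HSF1 KO over siNT, both in MG132. Red points are the 95 genes called lower, green points the 27 called higher and grey points the rest. HSPA1A and HSPA1B lie lowest among abundant genes, and GDF15 stands alone at the upper right.

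With 2 libraries a group, many calls were lost when a library was left out. When 1 of the 4 was left out, between 43 and 53 of all genes tested were called, and 31 of the 122 members were called each time. Each of these fits leaves 1 library alone in its group and assumes that it varies like the others. The 31 include HSF1, HSPA1A, HSPA1B, HSPH1, BAG3, DNAJB1, HSPB1, HSP90AA1, HSPD1, HSPE1, TBX3, TRIM26, CLU, RAB31, FGFR1, NEAT1, GDF15, TXNIP, BTG1 and FST. The other 91 kept their direction in each of these fits, and in 74 of them the fold change moved by at most 1.5 times, so most lost calls had a similar fold. The named genes whose smallest change came without HSF1 KO library B and was over 1.5 times from the value given were HSPA4L (-1.74), IL13RA2 (-2.245), P4HA2 (-1.39), DUSP5 (1.17), CTAG2 and TERC (-1.96). Without HSF1 KO library A it was MLKL (-2.31), without siNT library 1 it was GDF15, DKK1 (1.98) and ALK (-4.08), and without siNT library 2 it was CLU and LCP1 (-4.02). Where a gene named below is not among the 31, this is stated with it.

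The inducible HSP70 genes had the largest falls among abundant transcripts. HSPA1A (chr6:31815543-31817942, GRCh38.p14), which encodes the stress-inducible HSP70 that refolds client proteins, had 181 and 229 normalised counts in HSF1 KO cells, against 12973 and 7553 in siNT cells. Its neighbour and near copy HSPA1B had 82.0 and 97.0 in HSF1 KO cells, against 4229 and 2312 in siNT cells. For both genes each HSF1 KO value lay below each siNT value. HSPA1A was 48.3-fold lower (log2 -5.60 ± 0.38, adjusted p = 4.96e-06) and HSPA1B 34.7-fold lower (-5.12 ± 0.30, adjusted p = 1.84e-06). The genes differ at few positions, so how tags were shared between them is uncertain. In siNT cells in DMSO, HSPA1A had 746 and 980 and HSPA1B 211 and 275, and both HSF1 KO libraries lay below these too.

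Other HSP70 and HSP110 genes did not move alike. HSPH1 (chr13:31134973-31162388), an HSP110 that exchanges nucleotide on HSP70, had 77.5 and 41.3 in HSF1 KO cells, against 1390 and 1157 in siNT cells, a 22.0-fold fall (-4.46 ± 0.33, adjusted p = 1.21e-05). HSPA4L, another HSP110 relative, had 12.6 and 3.14 in HSF1 KO cells, against 51.4 and 37.9 in siNT cells (-2.59 ± 0.54, adjusted p = 0.0371, called in 1 of the 4 fits with a library left out). HSPA8, the HSP70 that cells make without stress, had 408 and 337 in HSF1 KO cells, against 710 and 464 in siNT cells, and was not called (-0.63 ± 0.34, adjusted p = 0.478). In all, 4 of the 10 members of this list fell and none rose, with a median log2 change of -0.64.

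HSP40 proteins deliver clients to HSP70 and start its ATPase. DNAJB1, the main heat-inducible HSP40, had 1429 and 1981 normalised counts in HSF1 KO cells, against 11245 and 11140 in siNT cells, a 6.65-fold fall (-2.73 ± 0.25, adjusted p = 7.38e-05). Its level in HSF1 KO cells overlapped that of siNT cells in DMSO, at 1580 and 1977. DNAJB2 had 43.2 and 27.9 in HSF1 KO cells, against 119 and 113 in siNT cells (-1.71 ± 0.31, adjusted p = 0.0165, called in 1 of those 4 fits). DNAJA1 was at 118 and 131 in HSF1 KO cells and at 250 and 240 in siNT cells, and missed the threshold (-0.97 ± 0.25, adjusted p = 0.0869). Of the 14 HSP40 members, 2 fell and none rose (median -0.24).

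BAG3 and HSPB1 were the members that fell among BAG co-chaperones and small heat shock proteins, 2 of 9 (median -0.64). BAG3, which links HSP70 to small heat shock proteins and to autophagy, had 68.5 and 93.9 in HSF1 KO cells, against 1630 and 763 in siNT cells, a 13.7-fold fall (-3.78 ± 0.43, adjusted p = 0.000409). HSPB1, the small heat shock protein HSP27, had 347 and 228 in HSF1 KO cells, against 1746 and 1757 in siNT cells, a 6.21-fold fall (-2.64 ± 0.25, adjusted p = 7.46e-05). For both genes the HSF1 KO libraries also lay below siNT cells in DMSO, at 133 and 249 for BAG3 and at 824 and 1063 for HSPB1. Against DMSO, HSPB1 was called lower (adjusted p = 0.00325, limma) and BAG3 was not (adjusted p = 0.267). BAG1, BAG2, BAG5 and BAG6 were not called.

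The cytosolic HSP90 machine, the longest chaperone list outside the ER, had the most called members, 7 of 19, and the lowest median of these lists, -0.91. The share called was higher in the HSP70 and HSP110 list, at 40.0% against 36.8%. HSP90AA1, the inducible HSP90, had 5819 and 4848 normalised counts in HSF1 KO cells, against 30731 and 26706 in siNT cells, a 5.39-fold fall (-2.43 ± 0.23, adjusted p = 7.93e-05). HSP90AB1, the HSP90 made in all conditions, had 4562 and 4626 in HSF1 KO cells, against 12012 and 11782 in siNT cells, a 2.59-fold fall (-1.37 ± 0.22, adjusted p = 0.00638). For both genes the HSF1 KO values lay below siNT cells in DMSO, where HSP90AA1 had 10212 and 9900 and HSP90AB1 had 8518 and 8307. Neither difference from DMSO was called (adjusted p = 0.0964 for each, limma). Of all genes tested, 24.2% had both HSF1 KO libraries below both DMSO libraries.

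The co-chaperones of HSP90 that fell were AHSA1, which stimulates its ATPase, STIP1 and ST13, which bridge it to HSP70, PTGES3, the p23 protein, and CHORDC1, an HSP90-binding protein also called morgana. CHORDC1 had 40.6 and 18.6 in HSF1 KO cells, against 118 and 135 in siNT cells (-2.16 ± 0.43, adjusted p = 0.0284). The other 4 fell by 1.08 to 1.35 on the log2 scale, with adjusted p between 0.0103 and 0.0322. AHSA1, PTGES3 and ST13, and HSP90AB1 above, were called in 0 of the 4 fits with a library left out, and STIP1 and CHORDC1 in 1. Over these fits HSP90AB1 stayed between -1.39 and -1.36, ST13 between -1.423 and -1.275, AHSA1 between -1.28 and -1.11 and PTGES3 between -1.18 and -0.97. CDC37, which brings kinases to HSP90, had 1640 and 1252 in HSF1 KO cells, against 1312 and 2260 in siNT cells, and was not called.

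Mitochondria have their own folding chamber, made of HSPD1 (HSP60) and its lid HSPE1 (HSP10), whose genes share 1 promoter. HSPD1 had 779 and 723 in HSF1 KO cells, against 2858 and 2352 in siNT cells, a 3.45-fold fall (-1.79 ± 0.22, adjusted p = 0.000595). HSPE1 had 358 and 323 in HSF1 KO cells, against 1442 and 1095 in siNT cells, a 3.69-fold fall (-1.88 ± 0.24, adjusted p = 0.00086). The siNT MG132 libraries overlapped DMSO for HSPE1, at 1058 and 1236, and the HSF1 KO libraries lay below both. No other of the 17 mitochondrial members was called (median -0.08).

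The cytosolic chaperonin TRiC, which folds actin and tubulin, had 0 of 8 subunits called, with a median of -0.49 and 7 of 8 values below 0. At an unadjusted p under 0.05, 4 of the 8 were lower and none higher, and 6.93% of all genes tested were lower and 5.88% higher at that limit. TCP1 had 416 and 386 in HSF1 KO cells, against 606 and 851 in siNT cells (-0.84 ± 0.24, adjusted p = 0.126). Prefoldin, which hands chains to TRiC, had 0 of 6 members called (median 0.07), and none at an unadjusted p under 0.05. Among all members 1.06% were called lower, and among all genes tested 0.276% were called higher, so the absence of rises from short lists says little. Over these 7 lists together, a grouping made after the values were seen, 17 of 83 members fell and none rose (median -0.35), and 9 of the 17 were called in each fit with a library left out.

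**Figure D2:**
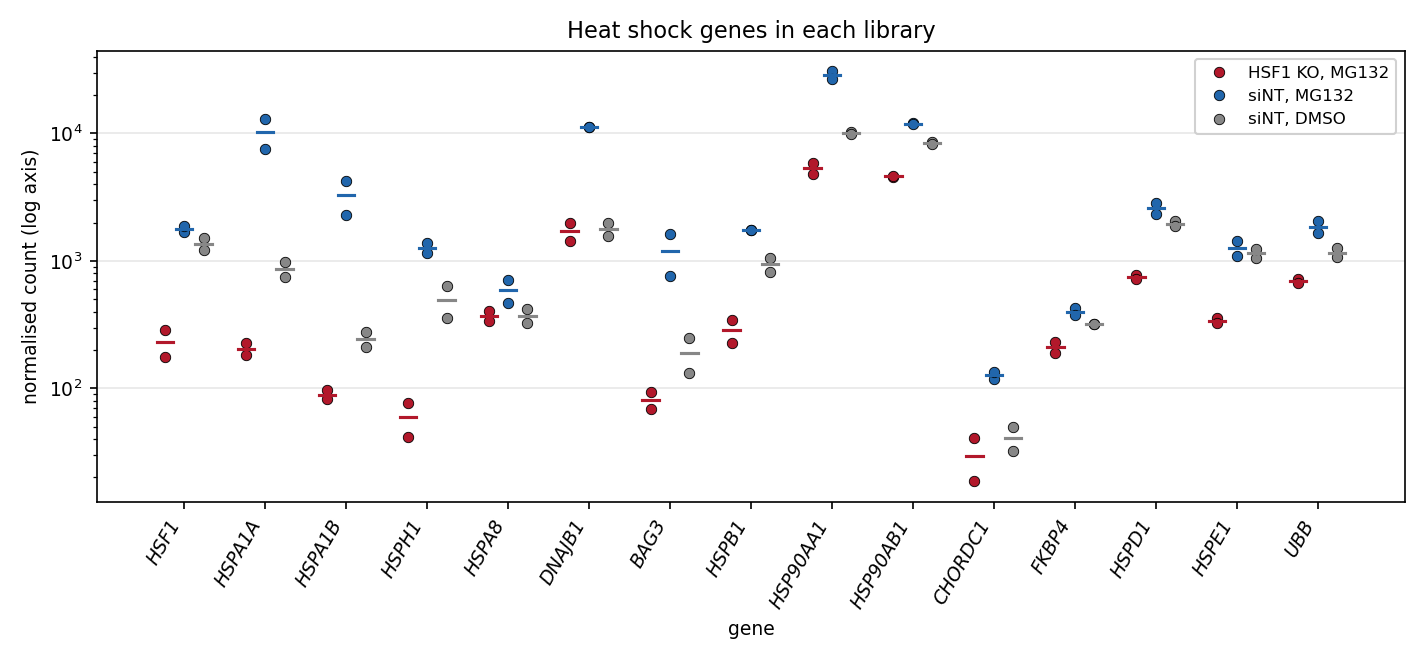
Normalised counts on a log axis for HSF1, chaperones, co-chaperones and the ubiquitin gene UBB. Points are single libraries of HSF1 KO cells in MG132 (red), siNT cells in MG132 (blue) and siNT cells in DMSO (grey), and short lines are means of 2 libraries. The red points lie below the blue ones for each gene plotted, and for all but HSPA8, DNAJB1 and CHORDC1 they lie below the grey points too.

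The promoters of the heat shock genes that fell can be read for the HSF1 unit. A script searched the 250 bases before and 50 after the start of each gene in RefSeq (GRCh38.p14) for a pair of facing units, GAANNTTC or TTCNNGAA, on both strands. Because each form is its own reverse complement, both strands give the same matches, and overlapping matches were kept. The stretches shown are those of called genes from the lists of chaperones and other heat shock genes that hold a match before the start. Each is 80 bases, 5′ to 3′ on the strand of the gene, with the pair in capitals, or for CHORDC1 each run of 3 units.
HSPA1A, chr6:31815401-31815480, plus strand: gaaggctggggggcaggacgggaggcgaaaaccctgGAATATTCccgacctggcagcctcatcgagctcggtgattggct
HSPA1B, chr6:31827597-31827676, plus strand: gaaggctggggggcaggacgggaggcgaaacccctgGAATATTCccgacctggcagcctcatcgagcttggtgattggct
CHORDC1, chr11:90223059-90223138, minus strand: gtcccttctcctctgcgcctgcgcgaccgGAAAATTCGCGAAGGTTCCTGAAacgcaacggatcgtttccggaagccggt
HSPB1, chr7:76302455-76302534, plus strand: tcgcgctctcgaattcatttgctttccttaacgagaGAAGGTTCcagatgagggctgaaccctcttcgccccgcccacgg
ZFAND2A, chr7:1160324-1160403, minus strand: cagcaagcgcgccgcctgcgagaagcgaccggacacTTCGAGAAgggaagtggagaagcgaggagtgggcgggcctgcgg
IER5, chr1:181088450-181088529, plus strand: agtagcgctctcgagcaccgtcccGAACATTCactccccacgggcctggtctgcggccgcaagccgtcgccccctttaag

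The exact pair stood in 13.7% of 27305 RefSeq promoters, in 9.58% of the 7065 members with a promoter in the table, in 11 of 64 genes called lower (17.2%) and in 2 of 22 called higher (9.09%). Among the chaperone lists it stood in 4 of 16 genes that fell (25.0%) and in 10 of 52 that were not called (19.2%). A run of 3 units stood in 0.487% of all promoters, and CHORDC1 was the one called gene with it. HSPH1, BAG3, DNAJB1 and HSP90AA1 held no exact pair in this window. The window covers a single start of each gene, and any other start was not searched. A match is a run of letters and not evidence of binding, and these shares were not tested.

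Heat shock in siNT cells gave a list of genes from libraries that the HSF1 KO comparison does not use. There, 281 of 9831 genes tested were raised after heat shock, which is 2.86%, and 263 of them were members here. Of these 263, 38 were lower in HSF1 KO cells under MG132 (14.4%) and 4 were higher (BTG1, CHAC1, DKK1 and KLF6, of which DKK1 was called in 1 of the 4 fits with a library left out), with a median log2 change of -0.48. Of the 85 members that heat shock raised 2-fold or more, 25 were lower (29.4%) and none higher, with a median of -1.25. Among all members 1.06% were lower, and among all genes tested 0.276% were higher. Seen from the other side, 38 of the 95 genes that fell had been raised by heat shock (40.0%), against 2.93% of all members.

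**Figure D3:**
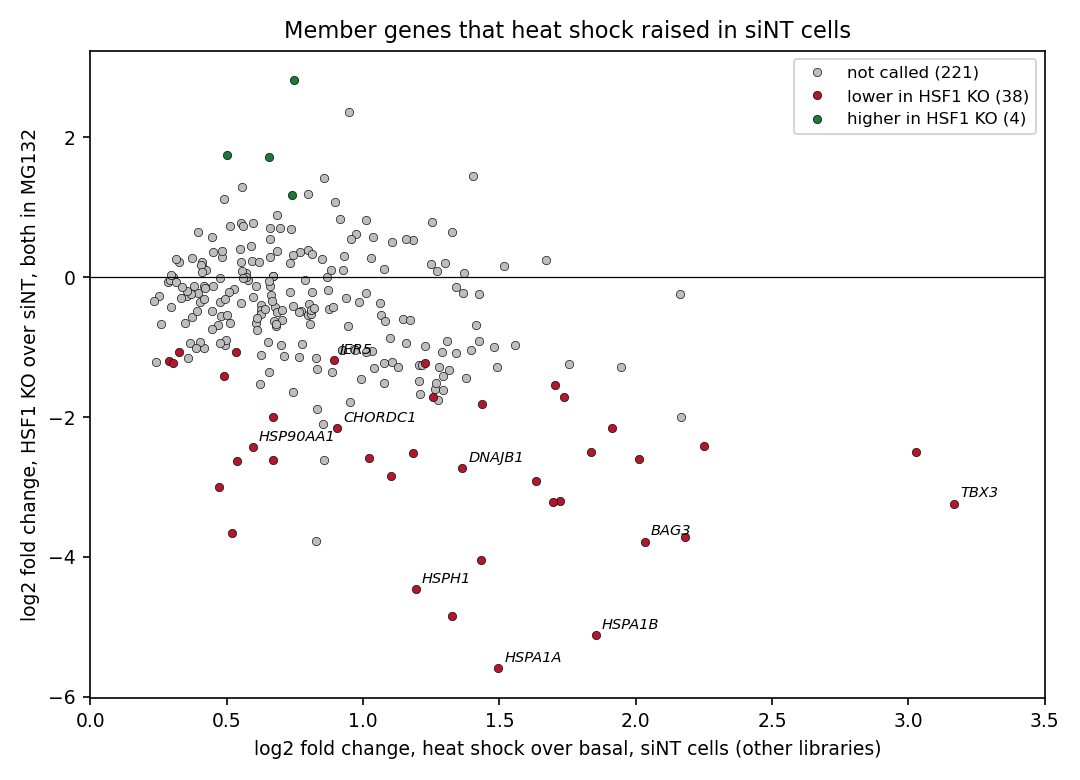
The 263 member genes that heat shock raised in siNT cells. The horizontal axis is the log2 fold change of heat shock over unstressed siNT cells in the separate table, and the vertical axis is the log2 fold change of HSF1 KO over siNT cells in MG132. Red points are the 38 genes called lower, green points the 4 called higher. TBX3 lies far right and HSPA1A lowest, so the order by heat shock is not the order by HSF1 KO.

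The gene that heat shock raised most among those that fell was TBX3, a T-box repressor of transcription in limb and breast development. TBX3 (chr12:114670255-114684175) had 49.5 and 47.5 normalised counts in HSF1 KO cells, against 633 and 343 in siNT cells, a 9.43-fold fall (-3.24 ± 0.37, adjusted p = 0.000409). siNT cells in DMSO had 34.0 and 36.4, below both HSF1 KO libraries, a difference that was not called (adjusted p = 0.67, limma). TRIM26, a ubiquitin ligase gene of the MHC region, had 42.3 and 46.5 in HSF1 KO cells, against 189 and 346 in siNT cells (-2.50 ± 0.32, adjusted p = 0.000972), and 34.0 and 42.2 in DMSO. The heat shock changes of TBX3 and TRIM26 were 3.17 ± 0.13 and 3.03 ± 0.17 on the log2 scale.

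Genes raised by heat shock and lower in HSF1 KO cells also included some that encode no chaperone. MICB, a stress ligand that natural killer cells recognise, had 15.2 and 16.5 in HSF1 KO cells, against 101 and 89.0 in siNT cells (-2.505 ± 0.35, adjusted p = 0.00206). RNF43, a ubiquitin ligase that removes Wnt receptors, had 1 read over both HSF1 KO libraries, against 85 reads in siNT cells (adjusted p = 0.000515). MLKL, the executor of necroptosis, had 4.398 and 11.4 in HSF1 KO cells, against 42.1 and 86.6 in siNT cells (-2.91 ± 0.54, adjusted p = 0.0171). For MICB and MLKL the HSF1 KO values overlapped those of siNT cells in DMSO, at 17.4 and 11.9 and at 5.11 and 4.71.

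SLC1A3, a glutamate and aspartate transporter, had 12.5 and 8.30 in HSF1 KO cells, against 62.8 and 71.0 in siNT cells (-2.60 ± 0.41, adjusted p = 0.00638). PLAUR, the urokinase receptor, had 97.4 and 195 in HSF1 KO cells, against 495 and 418 in siNT cells (-1.72 ± 0.35, adjusted p = 0.0354), and 116 and 192 in DMSO. RNF43 and MICB were called in all 4 fits with a library left out, MLKL in 2, and SLC1A3 and PLAUR in 1. These genes, and those of the matrix and cytoskeleton below, were picked after their values were seen.

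Genes of the broader heat shock response split. Of 21 members of that list, 6 fell and 1 rose, with a median of -0.84. ZFAND2A, which acts at the proteasome under arsenite and heat, had 143 and 160 in HSF1 KO cells, against 491 and 399 in siNT cells (-1.54 ± 0.33, adjusted p = 0.043). IER5, which recruits a phosphatase to HSF1, had 142 and 158 in HSF1 KO cells, against 322 and 362 in siNT cells (-1.19 ± 0.25, adjusted p = 0.036). For both, each HSF1 KO value lay above siNT cells in DMSO, where ZFAND2A had 56.8 and 45.8 and IER5 80.4 and 88.4. Against DMSO, ZFAND2A was called higher (adjusted p = 0.0465, limma) and IER5 was not (adjusted p = 0.16). The extracellular chaperone CLU fell 12.6-fold, with 4.38 and 4.17 in HSF1 KO cells, against 41.2 and 103 in siNT cells (-3.65 ± 0.43, adjusted p = 0.000515). RGS2, a brake on G protein signalling, was the member that rose, with 548 and 591 in HSF1 KO cells, against 196 and 119 in siNT cells (1.89 ± 0.31, adjusted p = 0.00824). DEDD2, UBB and CHORDC1 complete the 6, and of these 7 genes CLU alone was called in all 4 fits with a library left out (-3.002 to -4.30, both without a siNT library).

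Of the 27 members among ubiquitin and autophagy genes, UBB was the single call. UBB, a polyubiquitin gene, had 719 and 674 in HSF1 KO cells, against 1668 and 2044 in siNT cells (-1.41 ± 0.25, adjusted p = 0.0155, called in 0 of the 4 fits with a library left out). siNT cells in DMSO had 1076 and 1252. The repeated ubiquitin units make the assignment of its tags uncertain.

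JMJD6, the oxygenase that the study knocked down in other cells, had 80.5 and 79.4 normalised counts in HSF1 KO cells, against 167 and 130 in siNT cells given MG132. The ranges did not overlap, but the change was not called (-0.87 ± 0.32, adjusted p = 0.267). siNT cells in DMSO had 88.7 and 70.9, and heat shock raised JMJD6 in siNT cells by 1.10 on the log2 scale (adjusted p = 0.000103). Of 24 members among JmjC oxygenases, the histone demethylase KDM4B fell, with 35.1 and 27.9 in HSF1 KO cells, against 105 and 80.4 in siNT cells (-1.52 ± 0.31, adjusted p = 0.0333, called in 0 of those 4 fits).

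Other arms of the proteasome inhibitor response run through other factors. Proteasome subunits and assembly factors, which NRF1 induces when the proteasome is blocked, had 0 of 40 members called and a median of 0.08. At an unadjusted p under 0.05, 3 of them were higher and none lower, near the share of all genes tested (5.88% higher, 6.93% lower). ER chaperones and unfolded protein response genes had 0 of 21 called (median 0.05), with 2 higher at an unadjusted p under 0.05. NRF2 targets had 0 of 20 called (median -0.05), with 2 higher and 2 lower at an unadjusted p under 0.05, both near those shares. HMOX1, the haem oxygenase that NRF2 controls, had 656 and 715 in HSF1 KO cells, against 552 and 511 in siNT cells in MG132 and 88.3 and 105 in siNT cells in DMSO. These counts do not show that the lists were equal in both cells.

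**Figure D4:**
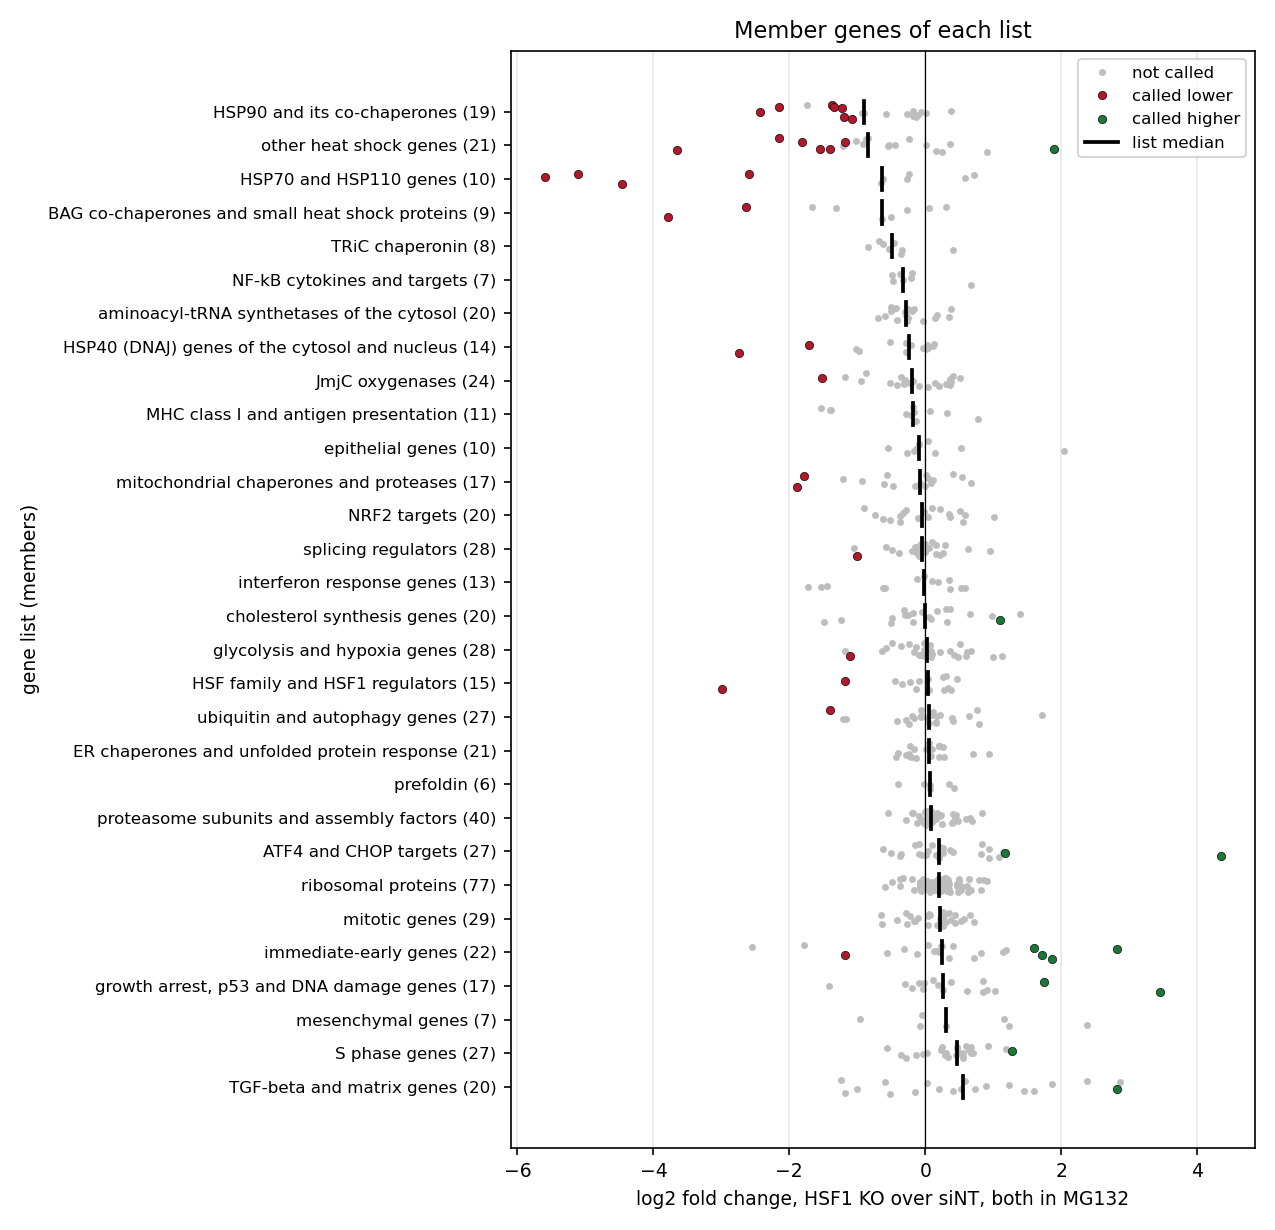
Log2 fold change, HSF1 KO over siNT in MG132, of the members of each written gene list with 5 or more members, sorted by list median (black bar). Red points are members called lower, green points members called higher and grey points the rest, with vertical scatter added for legibility. Red points gather in the chaperone and heat shock lists, and the proteasome, prefoldin and ER chaperone lists have none.

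Among ATF4 and CHOP targets, 2 of 27 members rose and none fell (median 0.20). Of the 27, 7 were higher and none lower at an unadjusted p under 0.05, against 5.88% and 6.93% of all genes tested. GDF15 (chr19:18386158-18389176, GRCh38.p14), a secreted stress cytokine of the TGF-beta superfamily, had 21674 and 16227 normalised counts in HSF1 KO cells, against 475 and 1772 in siNT cells. It was 20.4-fold higher (4.35 ± 0.53, adjusted p = 0.000628), and the siNT libraries differed from each other more than the HSF1 KO libraries did. siNT cells in DMSO had 475 and 1483, the same range as siNT cells in MG132. GDF15 was called in each fit with a library left out, between 3.40 without siNT library 1 and 5.301 without siNT library 2, but not without the filter on low values (adjusted p = 0.107) or without a trend in the variance (adjusted p = 0.0524).

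CHAC1, which degrades glutathione and is a target of ATF4, had 746 and 960 in HSF1 KO cells, against 345 and 409 in siNT cells (1.17 ± 0.26, adjusted p = 0.0477, called in 0 of the 4 fits with a library left out). DDIT3, which encodes CHOP, had 480 and 546 in HSF1 KO cells, against 221 and 263 in siNT cells, and was not called (1.08 ± 0.26, adjusted p = 0.0676). ATF4 had 1376 and 1304 in HSF1 KO cells, against 1072 and 1771 in siNT cells, with overlapping ranges. The amino acid genes ASNS, PSAT1, PHGDH and SLC7A11 were not called.

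Growth-slowing genes were among the clearest rises. TXNIP (chr1:145992435-145996579), an arrestin-like protein that inhibits thioredoxin and glucose uptake, had 353 and 500 in HSF1 KO cells, against 45.4 and 31.1 in siNT cells, a 10.9-fold rise (3.45 ± 0.30, adjusted p = 4.81e-05). siNT cells in DMSO had 297 and 240, so for TXNIP siNT cells in MG132 were the low group. BTG1, an antiproliferative partner of the CCR4-NOT deadenylase, had 393 and 446 in HSF1 KO cells, against 120 and 128 in siNT cells, a 3.37-fold rise (1.75 ± 0.24, adjusted p = 0.00152), and 166 and 174 in DMSO. TXNIP and BTG1 were the 2 called of 17 members among growth arrest, p53 and DNA damage genes (median 0.27). Of the 17, 5 were higher and 1 lower at an unadjusted p under 0.05, against 5.88% and 6.93% of all genes tested. CDKN1A, at 26.1 and 45.4 in HSF1 KO cells and 28.9 and 46.3 in siNT cells, was not called.

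Immediate-early genes, which growth factor and stress kinases switch on within minutes, had 4 of 22 members higher and 1 lower (median 0.24). Of the 22, 7 were higher and 3 lower at an unadjusted p under 0.05, against 5.88% and 6.93% of all genes tested. DUSP6, a phosphatase that turns off ERK, had 273 and 418 in HSF1 KO cells, against 99.9 and 122 in siNT cells (1.60 ± 0.29, adjusted p = 0.0161). KLF6, a zinc finger factor, had 60.5 and 106 in HSF1 KO cells, against 19.6 and 28.3 in siNT cells (1.72 ± 0.37, adjusted p = 0.043). siNT cells in DMSO had higher DUSP6 values than HSF1 KO cells, at 430 and 674, and KLF6 that overlapped them, at 104 and 119. The DUSP6 difference from DMSO was not called (adjusted p = 0.35, limma).

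DUSP5, the nuclear ERK phosphatase, had 100 and 263 in HSF1 KO cells, against 37.1 and 52.0 in siNT cells (1.86 ± 0.41, adjusted p = 0.0437), with ranges that did not overlap. CTGF (CCN2), a matricellular protein, had 95.8 and 188 in HSF1 KO cells, against 17.6 and 18.8 in siNT cells (2.82 ± 0.63, adjusted p = 0.0477). FOS had 0.8 and 9.29 in HSF1 KO cells, against 37.9 and 15.2 in siNT cells, and was not called (adjusted p = 0.322). Without a library, DUSP5 and DUSP6 were called in 1 of 4 fits and KLF6 and CTGF in 0.

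**Figure D5:**
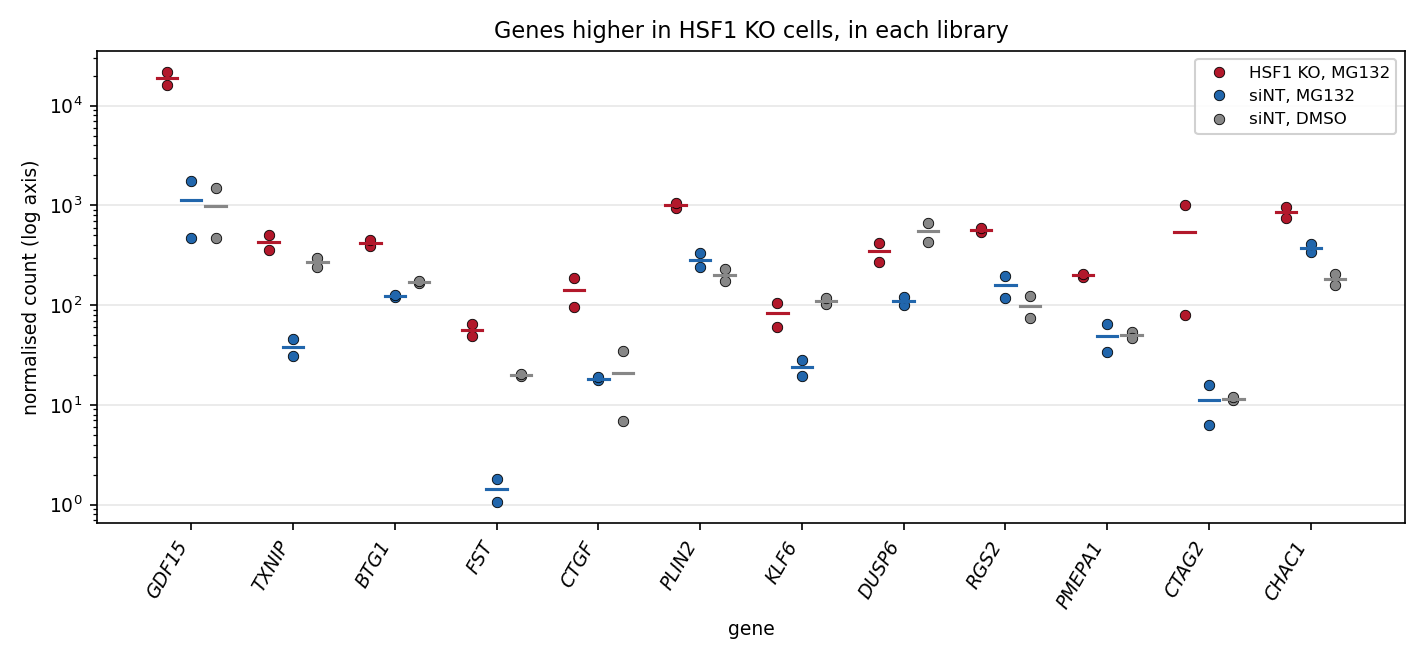
Normalised counts on a log axis for 12 genes called higher in HSF1 KO cells. Points are single libraries of HSF1 KO cells in MG132 (red), siNT cells in MG132 (blue) and siNT cells in DMSO (grey), and short lines are means of 2 libraries. The grey points lie near the blue ones for GDF15, PMEPA1 and CTAG2, but near or above the red ones for KLF6 and DUSP6.

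Other genes with large rises belong to no single list. PLIN2, which coats lipid droplets, had 941 and 1058 in HSF1 KO cells, against 240 and 330 in siNT cells (1.82 ± 0.30, adjusted p = 0.00735). PMEPA1, an inhibitor of TGF-beta signalling, had 190 and 207 in HSF1 KO cells, against 34.0 and 64.2 in siNT cells (2.06 ± 0.34, adjusted p = 0.00816). ZNF557, a zinc finger gene, had 112 and 124 in HSF1 KO cells, against 22.7 and 45.4 in siNT cells (1.84 ± 0.38, adjusted p = 0.0339). Each of these 3, like RGS2, was called in 1 of the 4 fits with a library left out.

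Cytoskeletal genes appeared in both directions. TUBB3, a beta-tubulin typical of neurons and of some tumours, had 242 and 215 in HSF1 KO cells, against 66.0 and 86.0 in siNT cells (1.58 ± 0.28, adjusted p = 0.0145). ARPC3, a subunit of the actin-branching ARP2/3 complex, had 584 and 711 in HSF1 KO cells, against 321 and 301 in siNT cells (1.05 ± 0.24, adjusted p = 0.0498). TUBA1A, an alpha-tubulin, had 147 and 229 in HSF1 KO cells, against 371 and 464 in siNT cells (-1.17 ± 0.26, adjusted p = 0.0478). With a library left out, TUBB3 was called in 1 of the 4 fits, and ARPC3 and TUBA1A in 0.

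CTAG2, a cancer/testis antigen gene on the X chromosome, had 79.3 and 1003 in HSF1 KO cells, against 6.22 and 16.0 in siNT cells (4.68 ± 0.85, adjusted p = 0.0162). Libraries A and B thus differed from each other more than 4-fold for CTAG2, and close copies of the gene make its count uncertain. CTAG2 was called in 2 of the 4 fits with a library left out, and its log2 change was 6.50 without library A and 2.86 without library B.

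A few genes were close to absent in siNT cells under MG132. GALNT14, an enzyme of O-linked glycosylation, had 59.2 and 49.4 in HSF1 KO cells, against no read in either siNT MG132 library. Its HSF1 KO mean was at least 18.4-fold higher when 3 reads per library are taken as the limit. GALNT14 passed the filter in 2 of the 4 fits with a library left out and was called in 0. FST, the activin antagonist follistatin, had 49.1 and 64.8 in HSF1 KO cells, against 1.07 and 1.82 in siNT cells, which is 118 reads against 3 (adjusted p = 0.000515). siNT cells in DMSO had FST at 19.3 and 20.2, above siNT cells in MG132 and below HSF1 KO cells. The FST difference between HSF1 KO cells and DMSO was not called (adjusted p = 0.267, limma).

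S phase genes had a median of 0.47, with 22 of 27 values above 0, but TK1, which encodes thymidine kinase, was the single call, and 5 were higher and none lower at an unadjusted p under 0.05. TK1 had 206 and 174 in HSF1 KO cells, against 70.1 and 85.1 in siNT cells (1.28 ± 0.28, adjusted p = 0.0437, called in 0 of the 4 fits with a library left out). Mitotic genes had 0 of 29 called (median 0.22), and none at an unadjusted p under 0.05. Ribosomal protein genes had 0 of 77 called and a median of 0.20, with 10 higher and 2 lower at an unadjusted p under 0.05, where 5.88% of all genes tested were higher and 6.93% lower.

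The remaining lists held at most 1 call. EBP, an enzyme of cholesterol synthesis, rose in 1 of 20 members of its list (1.10 ± 0.24, adjusted p = 0.043), with 514 and 387 in HSF1 KO cells, against 209 and 206 in siNT cells. NDRG1, a hypoxia-responsive gene, fell in 1 of 28 glycolysis and hypoxia members (-1.10 ± 0.23, adjusted p = 0.0405), and SRSF5, a splicing factor, in 1 of 28 splicing regulators (-1.003 ± 0.23, adjusted p = 0.0485). EBP, NDRG1 and SRSF5 were each called in 0 of the 4 fits with a library left out. Interferon, MHC class I, NF-kB, aminoacyl-tRNA synthetase and metallothionein lists had no call among 13, 11, 7, 20 and 2 members, and at an unadjusted p under 0.05 they held 2, 1, 0, 1 and 1 lower and none higher, against 6.93% lower and 5.88% higher of all genes tested.

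Falls outside the written lists of chaperones and heat shock genes included several signalling genes. RAB31, a GTPase of endosomal traffic, had 7.08 and 6.24 in HSF1 KO cells, against 290 and 169 in siNT cells, a 29.1-fold fall (-4.87 ± 0.40, adjusted p = 3.33e-05). FGFR1, a fibroblast growth factor receptor, had 16.1 and 16.6 in HSF1 KO cells, against 136 and 139 in siNT cells (-2.999 ± 0.29, adjusted p = 8.96e-05). IL13RA2, a decoy receptor for interleukin 13, had 33.3 and 11.4 in HSF1 KO cells, against 142 and 184 in siNT cells (-2.98 ± 0.43, adjusted p = 0.00284, called in 3 of the 4 fits with a library left out).

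These 3 genes were as high in DMSO as under MG132 in siNT cells or nearly so. RAB31 had 301 and 150 in siNT cells in DMSO, FGFR1 129 and 134, and IL13RA2 114 and 170. Heat shock raised CIART, described next, by 1.10 on the log2 scale (adjusted p = 0.000161, limma). It changed RAB31 and IL13RA2 by -0.09 and -0.03, neither called, and raised FGFR1 by 0.47 (adjusted p = 0.0198). CIART, a repressor of the circadian clock, differed from them, with 11.6 and 14.5 in HSF1 KO cells, against 115 and 85.4 in siNT cells in MG132 and 21.8 and 14.1 in DMSO (-2.84 ± 0.40, adjusted p = 0.00224, called in 3 of those 4 fits).

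Several matrix genes were lower in HSF1 KO cells. COL13A1, a transmembrane collagen, had 8.89 and 20.7 in HSF1 KO cells, against 81.3 and 86.2 in siNT cells (-2.53 ± 0.38, adjusted p = 0.00357). LTBP1, which stores latent TGF-beta in the matrix, had 20.6 and 39.2 in HSF1 KO cells, against 146 and 102 in siNT cells (-2.06 ± 0.35, adjusted p = 0.0107). P4HA2, a collagen prolyl hydroxylase, had 30.6 and 12.4 in HSF1 KO cells, against 69.0 and 96.6 in siNT cells (-2.004 ± 0.39, adjusted p = 0.0248). COL13A1 was called in all 4 fits with a library left out, LTBP1 in 2 and P4HA2 in 1. Heat shock raised P4HA2 by 0.67 on the log2 scale (adjusted p = 0.000664, limma). It changed COL13A1 and LTBP1 by 0.05 and -0.11, neither called. The written list of TGF-beta and matrix genes, which holds none of these 3, had 1 of 20 members called, CTGF, which rose, and a median of 0.55. Of the 20, 8 were higher and 2 lower at an unadjusted p under 0.05, against 5.88% and 6.93% of all genes tested.

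Counted over all 95 genes that fell, siNT libraries in MG132 were both above DMSO in 57, both below in 3 and overlapping in 35. Among all genes tested, 18.3% had both siNT MG132 libraries above DMSO and 18% had both below. In 81 of the 95, both HSF1 KO libraries in MG132 were below both siNT libraries in DMSO, against 24.2% of all genes tested, and in 4 (TBX3, TRIM26, ZFAND2A and IER5) both were above. Of the 27 genes that rose, siNT cells in MG132 were below DMSO in 11, above in 3 and overlapping in 13, and HSF1 KO cells were above siNT cells in DMSO in 25, against 24.3% of all genes tested. The genes were chosen by their levels in the HSF1 KO and siNT MG132 libraries, and each count against DMSO uses one of these groups again. The choice therefore fixes part of all these counts, and the shares of all genes tested are no independent measure for them.

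Of the 95 genes that fell, 17 had at most 6 reads over both HSF1 KO libraries. LCP1, an actin-bundling protein of blood cells and many tumours, had no read in either HSF1 KO library, against 15.5 and 95.7 normalised counts in siNT cells, at least 19.4-fold lower, and was called in 1 of the 4 fits with a library left out. ALK, a receptor tyrosine kinase, had no read in HSF1 KO cells, against 53.3 and 16.1 in siNT cells, at least 12.1-fold lower. BTBD11 (ABTB3) and RNF182 likewise had no read and were at least 9.74-fold and 8.71-fold lower. The 17 were chosen for few HSF1 KO reads. This choice largely fixes that for all 17 the HSF1 KO libraries were also below both siNT libraries in DMSO. LCP1 had 18.3 and 97.8 there and 12.8 and 169.8 in siJMJD6 cells, so library 2 was the higher in each of these groups.

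The siJMJD6 cells in MG132 share the siNT MG132 libraries as their reference, so the values stand here side by side without a comparison of the changes. HSPA1A had 181 and 229 normalised counts in HSF1 KO cells, and 1117 and 2860 in siJMJD6 cells. HSPB1 had 347 and 228 in HSF1 KO cells, and 2136 and 1977 in siJMJD6 cells. For both of these chaperone genes each siJMJD6 value was the higher. HSP90AA1 had 5819 and 4848 in HSF1 KO cells, and 4040 and 3662 in siJMJD6 cells. NEAT1 had 388 and 299 in HSF1 KO cells, and 361 and 343 in siJMJD6 cells. For HSP90AA1 each siJMJD6 value was the lower, and for NEAT1 the ranges overlapped. GDF15 had 21674 and 16227 in HSF1 KO cells, and 1158 and 991 in siJMJD6 cells. CHAC1 had 746 and 960 in HSF1 KO cells, and 17.1 and 16.6 in siJMJD6 cells. Both of these stress genes were higher in each HSF1 KO library.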

How the data were processed

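The signal values are normalised counts per gene that the authors deposited as 2 tables, 1 for MG132 and 1 for heat shock. Per the submitters' processing notes, FastQC 0.11.2, STAR 2.6.0 and HTSeq were used with build hg38. Annotation, strand setting and scaling were not found in the labels, notes or file headers. Values were not whole, so no count model was used. Values below 1 read, listed as 0 or as small positive numbers, were taken as no read, and the depth was estimated from the smallest step between low values.

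All 17 columns were matched to samples by title and grouped by label. Genes with 10 or more in at least 2 of the 8 MG132 libraries (3 of 9 for heat shock) were tested with limma 3.58.1 in R 4.3.3 on log2(value + 1), with a variance trend, no covariate and 2-sided Benjamini-Hochberg adjusted p under 0.05. All 8 libraries shared the spread. Fold changes are on the log2(value + 1) scale, which understates changes of low genes. Errors beside log2 changes are SE. The fit was tested on simulated data. Leaving out each library, other scalings, filters and pseudocounts were tried as alternatives. Named genes were a panel, the 12 largest falls and rises with a mean of at least 50, and up to 4 called members a list (with none called, 2). LCP1, ALK, BTBD11, RNF182, GALNT14, FST, TRIM26, NEAT1 and other genes outside this rule were chosen after their values were seen. Members and lists were chosen with earlier results of these data known. Gene positions, classes and promoters are from RefSeq GRCh38.p14. Replicate numbers do not pair HSF1 KO with siNT libraries.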

Additional observations from a re-analysis of the deposited data

How the results depend on the processing

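The count of called genes was the least stable result. Against 125 calls (27 higher, 98 lower), there were 29 without the filter on low values (3 higher, 26 lower), 48 without a trend in the variance (8 higher, 40 lower) and 210 with the 4 libraries fitted alone (75 higher, where 64.3% of calls were lower, against 78.4%). Leaving out 1 library gave 43 to 53 calls, 4 to 19 higher and 33 to 49 lower, and the share that was lower ranged from 63.5% without siNT library 2 to 92.5% without HSF1 KO library B. Gene by gene, 23 genes that fell and 3 that rose (BTG1, FST and TXNIP) were called in all 11 alternatives. With a pseudocount of 10 there were 111 calls, with median-of-ratios rescaling 121 and with quantile normalisation 123. No named gene changed direction in any alternative run. Libraries X1 and X2 are numbered alike in the siNT and siJMJD6 groups, with correlations of deviations of 0.37, 0.32 and 0.04, and HSF1 KO libraries A and B share no number with them. A fit with the replicate block gave 132 calls (29 higher, 103 lower) and kept all 122 called members. The heat shock list had 195 to 300 genes over its alternatives, against 281. At an estimated 1540000 to 1960000 reads a library and 2 libraries a group, every called member had changed at least 2-fold, and no smaller change passed the test.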

Other observations

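Noncoding RNAs were among the genes that fell. Which form of each RNA the 3' tags came from was not tested, so these counts do not show the level of the mature RNA. Of the 95, 9 are annotated as other than protein coding, against 1.86% of the 8433 members with an annotation. SCARNA22, SCARNA18, SCARNA12 and MIR6516 are members through the siNT libraries alone, where they are high. This count is therefore partly fixed by the choice of members, and it was not tested. NEAT1, the long noncoding RNA that scaffolds paraspeckles, had 388 and 299 normalised counts in HSF1 KO cells, against 1418 and 1549 in siNT cells in MG132 and 811 and 822 in DMSO (-2.12 ± 0.22, adjusted p = 0.000216). TERC, the RNA template of telomerase, had 36.0 and 9.33 in HSF1 KO cells, against 113 and 180 in siNT cells (-2.88 ± 0.48, adjusted p = 0.00816, called in 2 of the 4 fits with a library left out). SCARNA22, which guides modification of spliceosomal RNA in Cajal bodies, had 9.79 and 9.33 in HSF1 KO cells, against 118 and 94.7 in siNT cells (-3.34 ± 0.40, adjusted p = 0.000558). The host gene of SCARNA22, NSD2, had 303 and 440 in HSF1 KO cells, against 374 and 335 in siNT cells, and was not called.

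SNORA12 and SCARNA18 also lie in host genes that were not called. SNORA12 had 18.8 and 10.4 in HSF1 KO cells, against 76.2 and 100.2 in siNT cells (-2.56 ± 0.36, adjusted p = 0.00206). CWF19L1, in which SNORA12 lies, had 18.1 and 11.4 in HSF1 KO cells, against 21.6 and 4.68 in siNT cells. CWF19L1 is too low and variable (0.44 ± 0.67) to show whether this host changed. SCARNA18 had 1 read over both HSF1 KO libraries, against 75 in siNT cells, while TMEM167A, in which it lies, had 184 and 219 in HSF1 KO cells, against 160 and 174 in siNT cells. RPPH1, the RNA of ribonuclease P, SCARNA12, PPP1R26-AS1 and MIR6516 make up the rest and were called in 0 of the 4 fits with a library left out, and MIR6516 overlaps SCARNA16 and SNHG20 and its tags cannot be assigned with certainty.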
